A study of Gallus gallus with 3 samples.

Results

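The enzymes that write and erase histone methylation and acetylation, together with the enzymes that add methyl groups to DNA or oxidise them, were followed in the spinal neural tube of the chicken embryo. They were chosen by gene symbol: the numbered KDM, SETD, HDAC, KAT, PRMT, SIRT, DNMT and TET genes, the KMT2 genes, and 12 further enzymes or Polycomb subunits named singly. In all, 58 of the 15916 genes in the expression table met this rule, 48 by family name and 10 by exact name. EHMT2 and SUV39H1, named singly, had no row under these symbols, and neither had some family members, DNMT1, KDM6B and HDAC6 among them. A further 2699 genes carried no symbol. Statements on a family below cover its listed members only. RNA-seq of polyadenylated RNA had been made from wild-type White Leghorn embryos of 2 stages in the Hamburger-Hamilton series, HH14 with 2 libraries and the later HH19 with 1. Each library pooled spinal neural tube pieces of roughly 25 embryos, cut at the brachial level and on toward the thorax and freed by hand of neighbouring tissue, with trypsin as an aid. Both stages share strain, genotype and tissue in the labels, and stage is the difference they give. The protocol text attached to HH19 is that of the HH14 dissection, with 48 h of incubation, so the incubation and dissection of the HH19 embryos are not stated separately. The labels do not say whether the HH14 pools came from separate batches of eggs. The p-values below therefore rest only on the spread between these libraries, taken over many genes.

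Histone tails carry marks that are set by writers, removed by erasers and bound by readers. Methylation of lysine 4 of histone H3 (H3K4) is found at active promoters and enhancers and H3K36 methylation over transcribed gene bodies, whereas H3K27 methylation by Polycomb repressive complex 2 (PRC2) and H3K9 methylation mark silent chromatin. In the developing neural tube, Polycomb, histone deacetylases and the H3K27 and H3K4 demethylases are known to take part in the passage from dividing progenitors to neurons.

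Expression was deposited as TPM, the share of all transcripts that each gene makes up, corrected for gene length, with 1 value for HH14 and 1 for HH19. The reads of each HH14 library could be worked out again from the digits of these values for 10030 of the 11097 genes with a mean of at least 1 TPM over the 3 libraries (90.4%), and for 49 of the 58 enzymes. The HH14 libraries are called A, the shallower, and B, because nothing ties them to the replicate numbers in the labels. Over the recovered genes the reads found summed to 12795999 for A and 15537557 for B, and to 13866550 for the HH19 library. The reads found for a gene are the smallest that solved its values, and true reads may be a multiple of them, with the same TPM. This holds for all reads given below. The recovered enzymes had between 45 and 7995 reads in a library. The 9 enzymes without library values are HDAC2, KDM5B, KDM1A, DNMT3B, DNMT3A, HDAC1, EZH2, EP300 and CREBBP, for which no solution met the chance limit, and for these the HH14 value below is the authors' own, with no replicate error. At the stricter chance limit of 0.01 in place of 0.1 26 enzymes had library values, SIRT5, SIRT4, KAT2B, TET2, TET3 and KDM7A among them. TET1, KMT2E, NSD1, SETD2, EHMT1, KDM5A and KDM6A were among those with library values at 0.1 only.

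Libraries A and B stood apart in the markers of neighbouring tissues and of neurons. The 10 measured neuron markers summed to 309 TPM in A, 631 TPM in B and 1286 TPM at HH19, and none was at 0 reads. The 10 measured surface ectoderm markers summed to 196, 120 and 113 TPM, with CLDN4 at 0 reads in B and at HH19. The 15 markers of mesoderm, endoderm and lateral plate summed to 69.7, 33.0 and 37.6 TPM, with HAND1 at 0 reads at HH19, and the 6 neural crest markers to 123, 91.7 and 33.7 TPM. The neural progenitor markers, 5 of 11 with library values, summed to 224, 445 and 585 TPM, the 3 blood markers to 16.9, 29.9 and 33.5 TPM, and 6 of 23 cell cycle genes to 653, 578 and 491 TPM. In each of these 7 sums B differed from A in the same direction as HH19 did. Both comparisons share library A, so variation in A alone moves them the same way. The share of all genes with this pattern was not worked out. The sums are also not independent, since TFAP2A is in both the neural crest and the surface ectoderm list. Single genes did not all follow their sum. Of 9 tested mesoderm, endoderm and lateral plate markers 4 were higher in A and 5 in B. The larger sum in A rested mainly on TTR, APOA1 and HAND1. Their values there were 26.5, 13.6 and 8.21 TPM, against 3.48, 2.82 and 0.601 TPM for library B. PECAM1 and UNCX were among the 5 that were higher in B. The sum therefore does not stand for the list as a whole. Between A and B, 2 of 10 neuron markers, 2 of 6 neural crest markers and 1 of 6 cell cycle genes went against their sum. The part of these differences in the values below was not tested. In pooled tissue, fewer cells of a type and less RNA per cell cannot be told apart.

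All 58 enzymes were expressed above the filter of 1 TPM, and all stayed within 2-fold between the stages. Differences were taken on the log2(TPM + 1) scale, which understates those of low genes, and a difference of at least 1 in either direction counted as a call. By this size rule 0 of 58 enzymes were higher and 0 lower at HH19, where 3.93% of the 11097 genes tested were higher and 1.38% lower. At a 1.5-fold threshold 3 enzymes were higher (5.17%), SIRT5, SIRT4 and KAT2B, and 0 were lower, beside 12.4% and 4.58% of all genes. The median log2 difference was 0.04 for the enzymes and 0.05 for all genes, and 34 enzymes (58.6%) lay above their HH14 value against 55.6% of all genes. After median-ratio scaling of the columns the enzymes' median was -0.01 and after quantile normalization -0.06, so its sign turned with the scaling. The enzymes together made up 3290 TPM at HH14 against 3380 TPM at HH19. The enzymes' median depended on the HH14 library: among the 49 recovered ones it was -0.03 against A alone and 0.23 against B alone, and that of all recovered genes was 0.05 and 0.14.

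**Figure D1:**
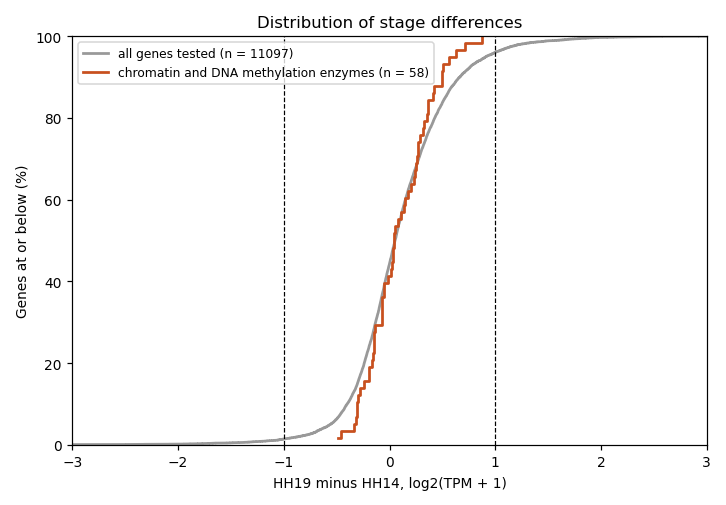
Cumulative share of genes (vertical axis, percent) at or below a given log2(TPM + 1) difference between HH19 and HH14 (horizontal axis), for the 58 enzymes and for the 11097 genes tested; dashed lines mark 2-fold. The enzyme curve stays inside the dashed lines, from -0.49 to 0.88, and crosses the curve of all genes near its middle, with medians of 0.04 and 0.05.

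With the library values a test could be run. limma with an intensity trend, fitted to the 10030 recovered genes and adjusted over all of them by the Benjamini-Hochberg method, called 0 of 49 enzymes higher and 0 lower at an adjusted p below 0.05, beside 0.967% and 0.219% of all recovered genes (1.19% either way). At an unadjusted p below 0.05 it was 1 enzyme, SIRT5, beside 7.34% of genes. The lone HH19 library is assumed in this fit to vary as the HH14 pair does. The prior of the fit had 119.5 degrees of freedom, so each standard error draws mainly on genes of like abundance. The gene's own HH14 pair adds little to it. KDM7A, with A and B far apart, and SIRT4, with A and B close, had standard errors of 0.56 and 0.53. Standard errors of the enzymes' differences ran from 0.32 to 0.56, and the smallest absolute log2 difference among the 119 called genes was 1.22, so that differences of the size seen in these enzymes were not detectable with these libraries. The HH19 value lay above both HH14 libraries for 19 of the 49 enzymes (38.8%), below both for 9 (18.4%) and between them for 21. Among all recovered genes 43.4% lay above both and 22.5% below both.

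The genes grouped by family name with the H3K4 methyltransferases were KMT2A, KMT2E, SETD1B and SETD7, which lay between 8.40 and 63.4 TPM in the 3 libraries. Whether each protein has this activity was not measured. KMT2E, a member of the MLL family, had 22.7 TPM in library A, 18.6 TPM in library B and 29.8 TPM at HH19 (limma log2 difference 0.51 ± 0.44 SE, adjusted p = 0.9997). HH19 was the highest of the 3 libraries for KMT2E, as for 43.4% of all recovered genes, and for no other gene of this group. KMT2A, the founding MLL gene, which maintains HOX gene expression, had 13.4, 8.68 and 11.1 TPM. SETD7, which methylates H3K4 and non-histone proteins, had 63.4, 40.9 and 49.5 TPM, and SETD1B, of the SET1 complexes, 10.1, 8.40 and 9.81 TPM. For these 3, the HH14 libraries bracketed HH19.

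Of the PRC2 core, EZH2 and EZH1 are alternative catalytic subunits, and EED and SUZ12 hold the complex together. EZH2, the subunit typical of dividing cells, had 54.2 TPM at HH14 against 43.7 TPM at HH19 (log2 difference -0.30). EZH1, the subunit typical of cells that have left the cycle, had 9.61 TPM in A, 8.03 TPM in B and 12.9 TPM at HH19 (limma 0.50 ± 0.54 SE, adjusted p = 0.9997). The HH19 value of EZH1 was above both HH14 libraries, and the ratio of EZH2 to EZH1 in TPM was 6.14 at HH14 and 3.39 at HH19. EZH2 had no library values, so the spread of this ratio within HH14 is not known, and its difference between stages was not tested. EED had 50.7, 51.2 and 45.8 TPM, HH19 being the lowest of 3 close values. SUZ12 had 40.3, 27.8 and 32.8 TPM, with HH19 between the HH14 libraries. No PRC2 subunit passed the size rule or, where it could be run, the test.

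The enzymes of H3K9 methylation and of H3K36 and H3K79 methylation were of middling abundance. EHMT1, also called GLP, which places mono- and dimethyl groups on H3K9, had 49.9 TPM in A, 52.3 TPM in B and 61.7 TPM at HH19. SUV39H2, which trimethylates H3K9 in heterochromatin, had 38.9, 27.7 and 30.2 TPM. HH19 thus lay above the pair for EHMT1 and inside it for SUV39H2. NSD1, an H3K36 dimethyltransferase, had 29.2, 29.0 and 37.6 TPM, and SETD2, which trimethylates H3K36, 32.8, 38.6 and 42.5 TPM. DOT1L, the H3K79 methyltransferase, had 21.7, 16.0 and 20.8 TPM. HH19 was the highest library for NSD1 and SETD2, with limma differences of 0.36 ± 0.40 SE and 0.25 ± 0.39 SE (both adjusted p = 0.9997).

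The remaining SETD proteins, some of which act on proteins other than histones, were SETD3, SETD4, SETD6 and SETD9. SETD4 had 9.32 TPM in A, 7.81 TPM in B and 5.81 TPM at HH19, the lowest log2 difference of all 58 enzymes (-0.49). SETD6, known in mammals to methylate the NF-kappa-B subunit RelA, had 5.37, 5.05 and 3.91 TPM, and SETD9 43.5, 45.8 and 40.3 TPM. These 3 had their lowest value at HH19, as 22.5% of all recovered genes did, and none passed the test (adjusted p = 0.9997 each in limma). SETD3, an actin histidine methyltransferase, had 9.43, 8.36 and 9.19 TPM, inside the HH14 pair.

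Among the demethylases, KDM5B and KDM1A were the most abundant, at ranks 2 and 3 of the 58 enzymes at HH14. KDM5B, an H3K4 trimethyl demethylase, had 233 TPM at HH14 against 230 TPM at HH19. KDM1A, or LSD1, the flavin-dependent H3K4 demethylase of the CoREST repressor, had 194 and 232 TPM (log2 difference 0.26). Its paralog KDM1B had 3.41 TPM in A, 2.38 TPM in B and 4.00 TPM at HH19, so that KDM1A exceeded KDM1B 66.9-fold at HH14 and 58.1-fold at HH19 in TPM. KDM5A, a paralog of KDM5B with the same substrate, had 36.8, 33.3 and 41.9 TPM. For KDM1B and KDM5A HH19 was the highest library, by less than the standard error of either difference.

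Of the 7 demethylases of H3K9 and H3K36, 5 had their highest value at HH19, as 43.4% of all recovered genes did: KDM2B, KDM3A, KDM3B, KDM4A and KDM4B. None passed the test. None of these 5 had library values at the chance limit of 0.01. KDM3A, an H3K9 demethylase induced by hypoxia, had 87.8 TPM in A, 83.9 TPM in B and 101 TPM at HH19. KDM4A, which acts on trimethylated H3K9 and H3K36, had 52.4, 49.9 and 64.1 TPM (limma 0.32 ± 0.36 SE, adjusted p = 0.9997). KDM2B, which also recruits a Polycomb complex to unmethylated CpG islands, had 32.6, 28.7 and 37.6 TPM. For these enzymes the HH14 libraries lay close together, and HH19 stood just beyond them, as it did for KDM3B (42.2, 37.2 and 43.9 TPM) and KDM4B (23.8, 21.3 and 26.1 TPM). KDM8, whose main known activity is as a protein hydroxylase, had 22.3, 25.6 and 22.8 TPM, inside the HH14 range. KDM7A, which demethylates H3K9 and H3K27, was different, with 17.2 TPM in A, 5.31 TPM in B and 7.93 TPM at HH19, where A was 3.24-fold above B. KDM6A, or UTX, the H3K27 demethylase of the list, had 29.6, 23.1 and 21.1 TPM, HH19 being the lowest (limma -0.30 ± 0.43 SE, adjusted p = 0.9997).

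**Figure D2:**
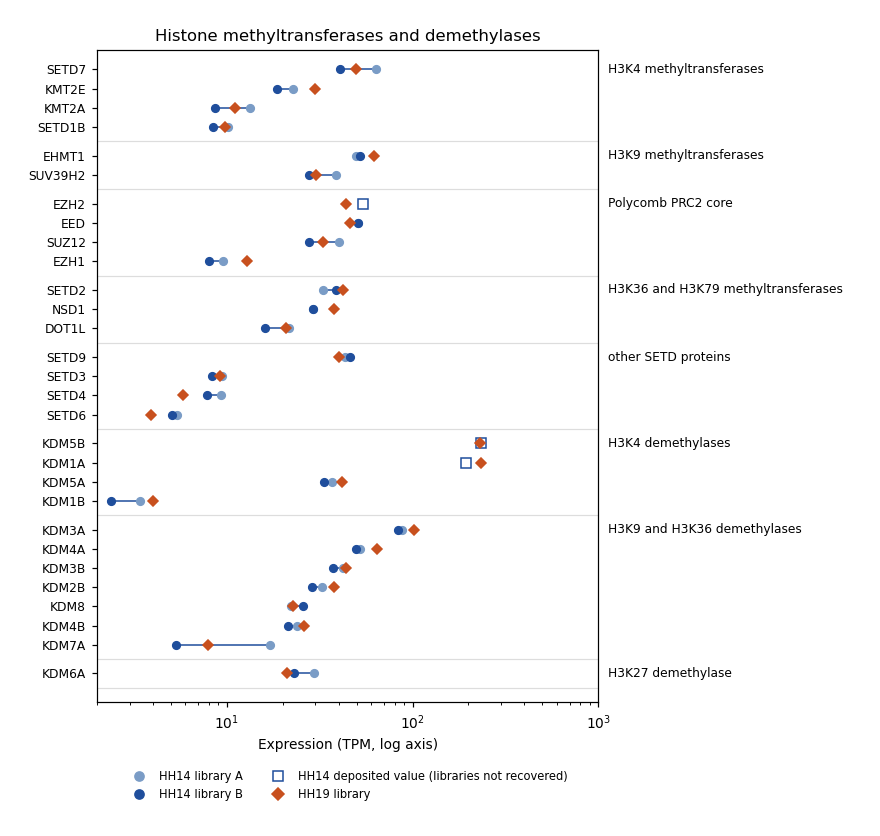
Expression in TPM (horizontal log axis) of the histone methyltransferases and demethylases, grouped by substrate or family name and ordered by HH14 level. Circles are the HH14 libraries A and B joined by a line, and diamonds the HH19 library. Open squares are the deposited HH14 value where libraries could not be separated. Diamonds lie close to the HH14 values throughout, and the longest line is that of KDM7A, from 5.31 to 17.2 TPM.

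The histone deacetylases were led by HDAC2. HDAC2, the catalytic subunit shared by the NuRD, Sin3 and CoREST repressors, had 761 TPM at HH14 against 621 TPM at HH19 (log2 difference -0.29). It alone made up 23.1% of the enzymes' summed TPM at HH14 and 18.4% at HH19. Its close paralog HDAC1 had 108 and 103 TPM. HDAC2 thus exceeded HDAC1 7.04-fold at HH14 and 6.01-fold at HH19. HDAC3, the deacetylase of the NCOR complexes, had 106 TPM in A, 113 TPM in B and 113 TPM at HH19, and HDAC8 had 128, 151 and 125 TPM. The class I enzymes all ranked within the first 8 of the 58 at both stages.

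The other zinc-dependent deacetylases were less abundant. HDAC4, a class IIa enzyme that shuttles between nucleus and cytoplasm, had 15.0 TPM in A, 9.39 TPM in B and 10.5 TPM at HH19, and HDAC9 had 11.7, 8.13 and 10.2 TPM. HDAC11, the class IV enzyme, had 16.3, 11.8 and 14.5 TPM. In all 3 the HH19 value fell inside the HH14 range. HDAC10, a polyamine deacetylase of class IIb, had 38.5, 35.3 and 30.1 TPM, with HH19 below both.

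The sirtuins, deacylases that consume NAD, held both of the largest differences toward HH19. SIRT5, a mitochondrial enzyme that removes succinyl, malonyl and glutaryl groups from lysine, had 25.7 TPM in A, 37.3 TPM in B and 58.8 TPM at HH19, from 533, 991 and 1285 reads. All 3 libraries differed, HH19 was the highest, and SIRT5 moved from rank 29 to rank 14 of the enzymes. Its limma log2 difference was 0.90 ± 0.39 SE (95% interval 0.14 to 1.67, adjusted p = 0.47). It was called by no setting tried after adjustment. SIRT4, also mitochondrial, had 3.05 and 3.15 TPM in the HH14 libraries and 5.72 TPM at HH19, from 45, 60 and 90 reads (limma 0.71 ± 0.53 SE, adjusted p = 0.9997). The HH14 pair of SIRT4 agreed closely and HH19 lay above it, at a read number lower than that of any other recovered enzyme.

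The other sirtuins stayed near their HH14 values. SIRT1, the nuclear deacetylase of histones and p53, had 28.8, 27.8 and 28.8 TPM. SIRT6, a chromatin-bound deacetylase of H3K9 and H3K56, had 64.0, 77.6 and 76.6 TPM, and SIRT7, the nucleolar sirtuin, 15.1, 23.9 and 23.8 TPM. In SIRT6 and SIRT7 HH19 was near library B and above A. The mitochondrial SIRT3 had 36.9, 44.3 and 39.1 TPM. Library B exceeded A in 5 of the 6 sirtuins, the exception being SIRT1. B was higher in 14 of the 49 recovered enzymes and in 4567 of all 10030 recovered genes. In recovery these 5 sirtuins had gene lengths under 3000 bases and SIRT1 a longer one. Of the 23 enzymes under 3000 bases 12 were higher in B.

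Among the acetyltransferases the paralogs EP300 and CREBBP, coactivators that acetylate H3K27 at enhancers, both had higher values at HH19. EP300 had 31.5 TPM at HH14 against 42.6 TPM at HH19 (log2 difference 0.42), and CREBBP 24.9 and 31.3 TPM (0.32). Neither passed the size rule, and neither could be tested. KAT2A, or GCN5, had 48.8 TPM in A, 74.7 TPM in B and 69.9 TPM at HH19. Its paralog KAT2B, or PCAF, had 7.89, 6.63 and 11.7 TPM (limma 0.63 ± 0.55 SE, adjusted p = 0.9997). HH19 was above both HH14 libraries for KAT2B and inside their range for KAT2A. KAT6A and KAT6B, catalytic subunits of the MOZ and MORF complexes that acetylate H3K23, had 44.4, 23.5 and 29.5 TPM and 20.9, 12.8 and 14.9 TPM, again with HH19 inside the HH14 range.

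Of the protein arginine methyltransferases, PRMT8, a membrane-anchored enzyme known in mammals from the brain, had 15.2 TPM in A, 11.2 TPM in B and 19.9 TPM at HH19 (limma 0.57 ± 0.50 SE, adjusted p = 0.9997). PRMT8 was the only one of the 4 arginine methyltransferases with its highest value at HH19, where 43.4% of all recovered genes had theirs. PRMT3, which methylates a ribosomal protein, had 39.1, 34.1 and 29.1 TPM. PRMT7, which places monomethyl marks, had 42.4, 35.9 and 35.2 TPM, HH19 being close to library B. Both were lowest at HH19, as 22.5% of all recovered genes were, and neither passed the test (adjusted p = 0.9997 each in limma). PRMT9, which methylates a splicing factor, had 48.6, 33.8 and 42.1 TPM.

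The de novo DNA methyltransferases were abundant at both stages. DNMT3B had 194 TPM at HH14 against 249 TPM at HH19 (log2 difference 0.36), and DNMT3A 131 and 175 TPM (0.41). DNMT3B exceeded DNMT3A 1.47-fold at HH14 and 1.42-fold at HH19. Both lay above their HH14 value by less than the size rule asks, and neither could be tested. The TET enzymes, which oxidise 5-methylcytosine, were far lower. TET3 had 20.3 TPM in A, 23.1 TPM in B and 31.0 TPM at HH19 (limma 0.50 ± 0.43 SE, adjusted p = 0.9997), above both HH14 libraries. TET1 had 16.2, 5.24 and 8.91 TPM and TET2 had 12.7, 5.75 and 8.74 TPM, with HH19 between A and B in each. The ratio of TET3 to TET1 was 1.26 in A, 4.42 in B and 3.49 at HH19.

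**Figure D3:**
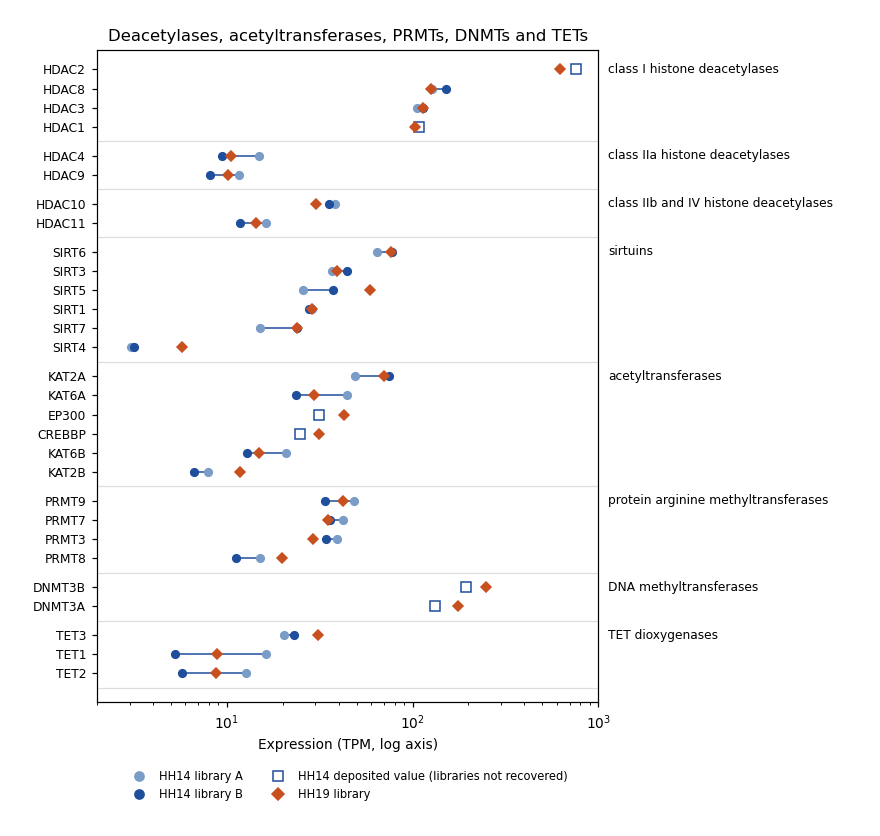
Expression in TPM (horizontal log axis) of the deacetylases, sirtuins, acetyltransferases, arginine methyltransferases, DNA methyltransferases and TET enzymes; circles are the HH14 libraries A and B joined by a line, open squares the deposited HH14 value where libraries could not be separated, diamonds the HH19 library. HDAC2 lies far to the right at 761 and 621 TPM, the SIRT5 diamond at 58.8 TPM lies right of both circles, and the TET1 and TET2 circles are widely spaced.

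The difference between the HH14 libraries was at least as large as that between the stages for most recovered genes, these enzymes included. The stage difference uses the mean of A and B, which varies less than 1 library. It would thus be the smaller of the 2 somewhat more often even with no stage effect. The absolute limma difference between stages exceeded the absolute difference between A and B in 21 of the 49 enzymes (42.9%) and in 42.8% of all recovered genes. In 3 enzymes, KDM7A, TET1 and TET2, the HH14 libraries were at least 2-fold apart (6.12%, beside 6.91% of all genes), each with the higher value in A. TET1 rested on 1944 reads in A and 806 in B, and KDM7A on 973 and 384. KAT6A, KAT6B, HDAC4 and SETD7 were at least 1.5-fold higher in A, and SIRT7 and KAT2A at least 1.5-fold higher in B. Against library A alone SIRT5 was at least 2-fold higher and KDM7A at least 2-fold lower at HH19, beside 8.82% of all recovered genes higher and 3.45% lower. Against library B alone 0 of the 49 enzymes passed the size rule, beside 3.34% higher and 0.678% lower.

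The sign of the difference between A and B went along with the gene length found in recovery. This is the shortest length that solved the values, and the true length may be a multiple of it. Among the 26 enzymes of at least 3000 bases 24 were higher in A (92.3%), and among the 23 shorter ones 11 (47.8%). Over all recovered genes the shares were 64.2% of 3141 and 50.0% of 6889. Most of the longer enzymes had no library values at the stricter chance limit. Those that had them were SETD1B, KDM7A, TET2, HDAC4, HDAC9, SETD3 and PRMT8, each higher in A. Of the shorter enzymes, only SETD7, PRMT9, HDAC3 and HDAC8 lacked them. The share of 92.3% thus rests mostly on library values that the stricter chance limit does not keep. The length limit was set with the values in view, and its part in the library differences was not tested.

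**Figure D4:**
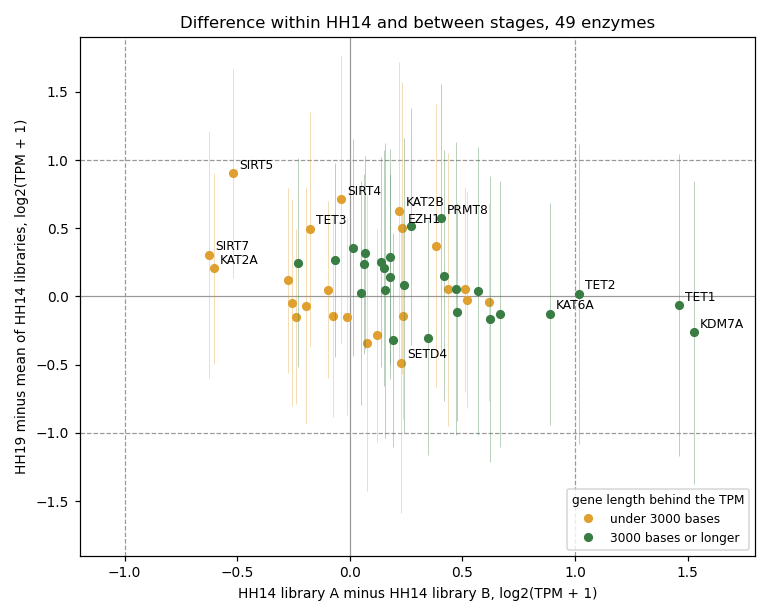
Difference between HH14 libraries A and B (horizontal axis) against that between HH19 and the HH14 mean (vertical axis), for the 49 enzymes with library values. Both are on the log2(TPM + 1) scale. Colours give the gene length found in recovery, of which the true length may be a multiple. Bars are 95% intervals of the limma fit and dashed lines mark 2-fold. KDM7A, TET1 and TET2 lie beyond the right dashed line, no point lies beyond a horizontal one, and the interval of SIRT5, 0.14 to 1.67, is the only one that does not include 0.

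The partners of these enzymes were also close to their HH14 values. In 10 lists of complex subunits, readers, cofactor enzymes and histone supply genes, 160 further genes were tested, of which 3 were at least 2-fold higher and 0 lower, beside 3.93% and 1.38% of all genes. Their median log2 difference was 0.03, and limma called 0 of the 132 recovered ones at an adjusted p below 0.05 and found 6 at an unadjusted p below 0.05 (4.55%), beside 1.19% and 7.34% of all recovered genes. Among those higher were SCMH1, of Polycomb repressive complex 1 (PRC1), and MECOM, a zinc finger factor of the PRDM family. SCMH1 had 10.1 TPM in A, 16.4 TPM in B and 29.6 TPM at HH19 (limma 1.13 ± 0.48 SE, adjusted p = 0.46), and MECOM 3.48, 6.04 and 12.9 TPM (1.31 ± 0.56 SE, adjusted p = 0.46). In both, B lay between A and HH19. Against B alone 0 of the 132 recovered partner genes were 2-fold higher, beside 3.34% of all recovered genes, and against A alone 11 were (8.33%), beside 8.82%.

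The list medians depended on the HH14 library used, and 7 of the 10 turned sign between A and B. The 17 PRC1 subunits tested (2 higher and 0 lower) had a median of 0.22, which was -0.02 against A alone and 0.27 against B alone. The 16 acetyl-lysine and methyl-lysine readers (0 higher and 0 lower) had a median of -0.21, and the 11 recovered ones -0.35 against A and 0.13 against B. The PRC1 list shares KDM2B with the enzymes. PHC2, its most abundant subunit, had 47.3, 87.3 and 104 TPM. The readers included the heterochromatin proteins CBX3, with 319 TPM at HH14 against 278 TPM at HH19, and CBX1, with 264 and 265 TPM. Of 16 genes of histone supply and chromatin assembly 12 lay below their HH14 value (median -0.16, and -0.12 against A and -0.05 against B over 9 recovered), among them NAP1L1, a histone chaperone, with 1328 and 1143 TPM. Of the 23 cell cycle genes tested 18 lay below as well (median -0.15, 0 higher and 0 lower, and -0.33 against A and 0.01 against B over 6 recovered). CDK1 among them had 766 and 527 TPM. Of all 11097 genes tested 4922 lay below their HH14 value. Neither of these lists was tested as a whole.

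Among 12 tested DNA methylation partners and readers the median was 0.10, and over the 9 recovered it was -0.02 against A and 0.23 against B. UHRF1, which brings the maintenance methyltransferase to replicated DNA, had 240 TPM at HH14 against 167 TPM at HH19 (log2 difference -0.52), while the methyl-CpG-binding family member MBD3, a NuRD subunit, had 263 and 267 TPM. UHRF1 was thus lower at HH19 while DNMT3A and DNMT3B were higher, all within 2-fold. None of them had library values, so none could be tested. GADD45A, a stress gene linked to DNA demethylation and chosen here after its values were seen, had 49.8 TPM in A, 75.1 TPM in B and 113 TPM at HH19 (limma 0.87 ± 0.34 SE, adjusted p = 0.36). RBBP4, the histone-binding subunit shared by PRC2, NuRD and Sin3, was the most abundant PRC2 partner, with 740 and 748 TPM.

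Over 26 acetyltransferase complex subunits the median was -0.01 (-0.10 against A, 0.07 against B), and over 20 corepressor subunits 0.05 (-0.02 and 0.14). Over 7 PRC2 partners it was 0.03 (-0.17 and 0.36), and over 20 other histone methyltransferases and demethylases 0.10 (-0.02 and 0.26). In 2 further lists the sign was the same against either library: 8 subunits of H3K4 methyltransferase complexes at 0.02 (0.13 and 0.12) and 19 metabolic cofactor enzymes at 0.14 (0.19 and 0.25). These values against 1 library cover recovered genes only, and none of the lists was tested as a whole. For all genes tested the median was 0.05 (0.05 against A and 0.14 against B). WDR5, the shared scaffold of the H3K4 methyltransferases, had 212 and 208 TPM, and SAP18, a Sin3-associated protein, 643 and 613 TPM. CHD4, the remodelling ATPase of NuRD, had 241 and 278 TPM.

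**Figure D5:**
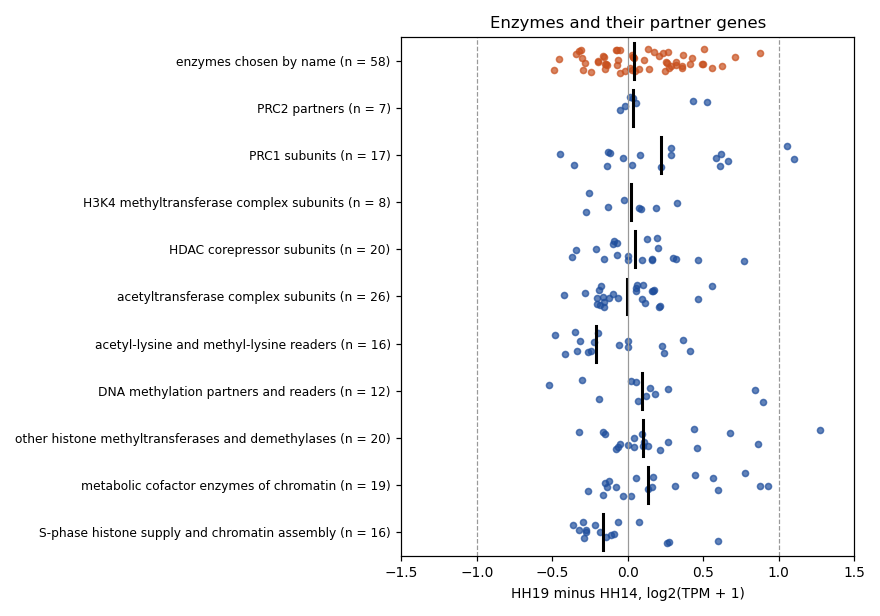
Difference between HH19 and HH14 on the log2(TPM + 1) scale (horizontal axis) for the 58 enzymes and for the tested genes of 10 partner lists, 1 point a gene, spread vertically at random; black bars are medians and dashed lines mark 2-fold. The 3 points beyond the dashed lines all lie toward HH19, and list medians run from -0.21 to 0.22.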

How the data were processed

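The authors deposited expression as TPM per Ensembl gene in 1 table, the HH14 libraries merged into 1 column. The submitters' processing notes list DESeq2, TopHat2, SAMtools and FastQC as tools and galGal4 as build. What each did, its version and how HH14 was merged is not given in the sources drawn on. Columns were compared as deposited.

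Each HH19 value equals a constant times whole reads (1 added read included) divided by a whole gene length, and each HH14 value is the mean of 2 such terms. The constants were fitted to low genes. For each gene all lengths up to 20000 bases and HH14 ratios up to 20 were searched in order of length, and the first solution was kept where at most 0.1 were expected by chance. True lengths and reads may be multiples of these, with the same TPM. Recovery covered 93.2% of genes. With HH14 values shifted by 1 ppm, 6.50% of tested genes still found a solution, so some library values may be wrong. The chance limit was set after recovery was seen.

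The design had foreseen library values for low genes only. Differences used a pseudocount of 1, a mean TPM of at least 1 (HH14 counted for 2 libraries), and a 2-fold size rule. limma with a trend was run on the recovered genes, with two-sided p-values adjusted after Benjamini and Hochberg. Recovery, size rule and limma were run on simulated data built on the same model of reads and lengths, with larger changes than these enzymes showed. Such a run cannot show that the model holds for the deposited values, or that smaller differences would be found. Members and lists were chosen with earlier results of these data known. All members could be named, and per list the 4 largest differences past 2-fold and the 2 most abundant genes within it. A gene that this rule names is not reported here, but it stays in all counts. Python 3.11.15, numpy 2.4.6, pandas 2.3.3, matplotlib 3.10.9 and limma 3.58.1 under R 4.3.3 served for all steps.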

Additional observations from a re-analysis of the deposited data

How the results depend on the processing

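No paired analysis was possible because HH19 has 1 library with no replicate number. The count of 0 enzymes higher and 0 lower by the size rule was the same at pseudocounts of 0.1 and 5, without a filter, at a mean TPM of at least 5, and after median-ratio scaling or quantile normalization of the columns. The median of all genes moved from 0.05 to -0.03 after quantile normalization. At a 1.5-fold threshold 3 enzymes (5.17%) and 16 partner genes (10%) were higher, beside 12.4% of all genes. Leaving out each HH14 library in turn covered the 49 recovered enzymes and 132 recovered partner genes only. It gave 0 to 1 enzymes higher, 0 to 1 lower, a median of -0.0298 to 0.2339 for the enzymes, and 0 to 11 partner genes higher. Of all recovered genes 3.34% to 8.82% were higher and 0.678% to 3.45% lower. At a pseudocount of 5 there were 0 partner genes higher and after quantile normalization 1, against 3. The count of all genes higher went from 436 to 149 and 300 in these settings. limma called 0 enzymes in each of the 9 alternatives tried, including voom on recovered reads. Voom and the chance limits of 0.01 and 0.2 were not planned and were added after the data were seen. The adjusted p of SIRT5 ranged from 0.21 to 0.9992, and its unadjusted p was 0.053 after quantile normalization and 0.074 with voom. The calls among all recovered genes went from 119 to 8 after median-ratio scaling and to 0 after quantile normalization. The 9 enzymes below both HH14 libraries were 16 after quantile normalization (32.7%), where the share of all genes went from 22.5% to 37.2%. The 19 above both were 7 of 26 at a chance limit of 0.01 (26.9%), beside 47.5% of all genes; the cause was not tested. Without library A 12 of the 49 recovered enzymes changed the sign of their difference and without B 9. Under each scaling 7 of all 58 enzymes did so. A limma fit without an HH14 library was not run, since no residual degrees of freedom would be left. HH19 rests on 1 pool, so its spread was not measured.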
